A study of Mus musculus with 96 samples.

Results

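The cytosolic ribosomal protein genes encode the proteins that assemble with ribosomal RNA into the small and the large subunit of the ribosome. They were taken by symbol, as the Rpl and Rps series, the stalk genes Rplp0, Rplp1 and Rplp2, and Rpsa, without symbols that mark a pseudogene and with a mean of at least 5 CPM (read counts scaled to library depth) over all 96 libraries. The rule was met by 75 genes, 30 of the small and 45 of the large subunit, out of 55421 genes in the table, of which 35670 had any count. A further 4 symbols lay under the limit, Rps10 at 1.29 CPM, Rps3a2 at 0.97 CPM, Rps3a3 at 0.47 CPM and Rpl24 at 0.25 CPM, of which Rps3a2 and Rps3a3 are annotated as processed pseudogenes. The genes just above it were Rpl13a at 6.42 CPM and Rpl23a at 25.3 CPM.

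Liver mRNA was measured in mice of 12 to 16 weeks of 2 lines, Bmal1 and Cry, with wild type (WT) and knockout (KO) animals in both. BMAL1, the product of Arntl, activates the circadian clock, and the cryptochromes CRY1 and CRY2 repress it; the Cry line KO is labelled as the double knockout Cry1/2_dKO. Animals ate ad libitum (AL) or only at night (RF), and livers were taken at zeitgeber times (ZT) 0, 4, 8, 12, 16 and 20 h, where ZT0 is the start of the light phase. The 8 groups of line, genotype and feeding held 12 libraries each, in 2 replicate series of 6 libraries, 1 per time, that carry a number in the sample title. No label explains that number, the alleles, any Cre driver or whether animals were pooled, so the p-values refer to library-to-library spread, which may be partly technical.

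Ribosomal protein mRNAs are among the most abundant of a cell and are made in similar amounts, since each ribosome holds 1 copy of nearly every ribosomal protein. Most of them start with a C followed by a run of pyrimidines, the terminal oligopyrimidine (TOP) tract, through which their translation follows the nutrient sensor mTOR and the repressor LARP1. In liver, feeding and the clock are known to act on ribosome production, largely at the level of translation and of ribosomal RNA synthesis. The counts used here report mRNA amount only.

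The start sites were searched for 2 sequence features known to link such genes to feeding and to the clock. These are the TOP tract and the CACGTG E-box that BMAL1 with CLOCK can bind. RefSeq promoters (assembly GRCm38.p6) were matched for 55 of the 75 genes. In the 30 bases from 20 before to 10 after an annotated start, a run of at least 8 pyrimidines on the gene's strand was present in 25 of the 55 genes (45.5%), against 14.5% of all 27025 genes with a promoter in the table. Rpl7a and Rpl34 had the longest runs of the 55 genes, Rpl4 is among the genes called in the Bmal1 line, and Rps6, a target of the kinase downstream of mTOR, had a shorter one. Rps4x, Rps12, Rplp0 and Rpl10 had none at the annotated start, which says only that the letters are not in this window. A run was counted anywhere in the window, in Rpl4 wholly before the annotated start, so a run need not be a TOP tract. Capitals mark the pyrimidine run, and each window reads from 5′ to 3′ on the strand of the gene.
Rpl7a, chr2:26910787-26910816, plus strand: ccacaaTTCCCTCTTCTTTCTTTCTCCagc
Rpl34, chr3:130730328-130730357, minus strand: ccgCCCCTTCCTTTTCCTCTTCCggggacg
Rpl4, chr9:64173367-64173396, plus strand: agTCTTTCCTTTTCCTgtgggagcagccgg
Rps6, chr4:86857358-86857387, minus strand: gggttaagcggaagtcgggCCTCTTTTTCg
Rps4x, chrX:102189382-102189411, minus strand: aaagtctgaggctgggcggagcaacccagg
Rps12, chr10:23787200-23787229, minus strand: ttaaataccgtcatgcggccaccgccggcc
Rplp0, chr5:115559447-115559476, plus strand: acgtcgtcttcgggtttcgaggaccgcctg
Rpl10, chrX:74270796-74270825, plus strand: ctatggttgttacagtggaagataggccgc

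In the promoters of 300 bases (250 before and 50 after the start, both strands), CTTCCG, the core that factors of the ETS family such as GABPA bind, was present in 38 of 55 genes (69.1%) against 18.8% of all genes. ATGGCG, the core of the YY1 motif, was present in 16 genes (29.1% against 10.2%). The E-box CACGTG was present in 6 genes, namely Rpl13a, Rpl14, Rpl19, Rpl23, Rpl34 and Rps19, or 10.9% against 8.09% of all genes. The E-boxes of Rpl14 and Rpl34 are shown with the E-box in capitals, on the strand of the gene.
Rpl14, chr9:120571322-120571381, plus strand: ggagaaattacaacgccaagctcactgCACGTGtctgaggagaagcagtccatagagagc
Rpl34, chr3:130730521-130730580, minus strand: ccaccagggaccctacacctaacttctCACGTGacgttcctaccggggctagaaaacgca

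Total counts ran from 1478963 to 35568856 per library, with a median of 25422366 and the 3 shallowest libraries were at 1478963, 2694543 and 3181499. All 8 hepatocyte markers were above 0 in every library. The targeted genes overlapped between genotypes: Arntl was at 9.79, 11.3 and 15.03 CPM (lowest, median, highest) in Bmal1 KO AL and at 0.271, 22.7 and 35.5 CPM in Bmal1 WT AL. In the fit used below, which averages log levels over the 6 times, Arntl was at 0.29 ± 0.14 log2 (SE, adjusted p = 0.1329) in KO over WT under AL and higher in KO at 0.64 ± 0.14 (adjusted p = 0.0003155) under RF, where the medians were 14.75 CPM in KO and 23.6 CPM in WT. Cry1 was at 5.24, 7.67 and 9.97 CPM in Cry KO AL and at 5.94, 20.8 and 50.8 CPM in Cry WT AL. These are counts over the whole gene, which can include parts outside a deletion, so they do not check the genotype labels. From here on CPM values are scaled by TMM, a correction for the makeup of each library.

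Libraries of 1 series stood apart. In Cry KO AL, the 6 libraries of series 2 held 1.78% to 1.98% of their counts in the 75 genes, and the 6 of series 1 held 1.09% to 1.29%. A score, the mean over the 75 genes of log2(CPM + 1) minus each gene's mean over all libraries, ran from 0.87 to 1.12 in series 2 and from -0.52 to 0.41 in the other 90 libraries. For 73 of 75 genes the lowest value in series 2 was above the highest of the other 90 libraries, the 2 others being Rpl13a and Rpl23a. Calls that rest on Cry KO AL are therefore given with and without series 2. The series also bears on other comparisons, since the spread between libraries was estimated over all 96 together: the median SE of the 75 genes in the Bmal1 knockout comparison under RF was 0.13 log2 with both series, 0.07 without series 2 and 0.07 without series 1.

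As a share of all counts, the 75 genes took 1.21% ± 0.11 (SD, n = 12) in Bmal1 WT AL, 1.07% ± 0.06 in Bmal1 WT RF, 1.43% ± 0.08 in Bmal1 KO AL and 1.25% ± 0.23 in Bmal1 KO RF. In the Cry line they took 1.10% ± 0.08 in WT AL, 1.10% ± 0.15 in WT RF and 1.11% ± 0.19 in KO RF, and 1.55% ± 0.37 in KO AL, where the SD reflects the gap between its series. The shares carry no TMM scaling, and in order from low to high the first 4 groups, Bmal1 WT RF, Cry WT RF, Cry WT AL and Cry KO RF, lay closer together than the SD of each. Bmal1 KO AL (1.33% to 1.57%) and Bmal1 WT AL (1.03% to 1.38%) overlapped in a narrow band. Outside Cry KO AL, 3 libraries stood off their group in the score: Bmal1 KO RF series 4 at ZT0 (-0.52), Cry KO RF series 3 at ZT16 (0.40) and Cry WT RF series 6 at ZT20 (0.41, against -0.23 in series 9).

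**Figure D1:**
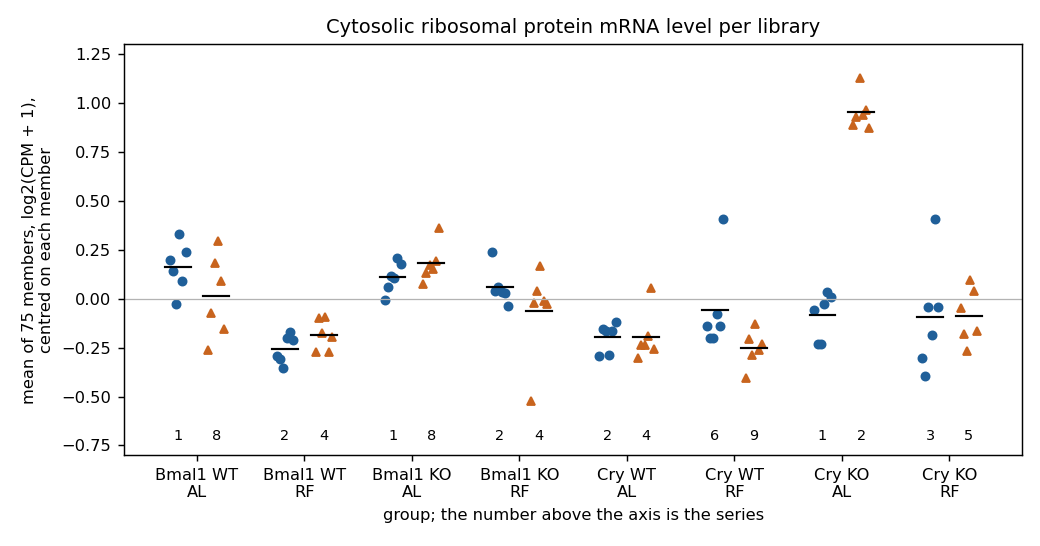
Ribosomal protein score of each of the 96 libraries (mean of log2(CPM + 1) over the 75 genes, centred on each gene's mean), by group, with the replicate series marked by colour, symbol and number and a bar at the mean of each series. The 6 libraries of Cry KO AL series 2 sit between 0.87 and 1.12, above all other libraries, which reach at most 0.41.

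By level, the genes spanned a wide range. The highest mean levels over the 96 libraries were those of Rps2 (527.5 CPM), Rpl4 (507.5 CPM), Rplp0 (394.2 CPM), Rpl10 (390.6 CPM) and Rpsa (378.5 CPM), around a median of 149.4 CPM. Among the lowest were Rpl13a (6.49 CPM), Rpl23a (25.4 CPM), Rpl35 (33.0 CPM) and Rps28 (57.4 CPM). Since longer mRNAs give more reads, levels between genes were compared per kb of annotated mRNA length. On that scale Rplp1, an acidic protein of the ribosomal stalk, was highest at 568 CPM per kb. It was followed by Rps2 at 528.6 and Rpl10 at 472.3 CPM per kb. The median per kb was 194.4 and the lowest was Rpl13a at 8.41 CPM per kb. Rpl13a at chr7:45125558-45128761 lies over the annotated gene Gm45713 on the same strand, listed at 0 CPM. Likewise Rpl24 overlaps Gm28037 and Rps10 overlaps RPS10-NUDT3, both on the same strand and both at 0 CPM. Reads shared with an overlapping gene or with a near-identical copy can be lost in counting, and 298 ribosomal protein pseudogenes are in the table with counts equal to 0.41% of those of the 75 genes, so levels of single genes are uncertain. Comparisons of 1 gene between libraries share this loss only where it is equal on both sides, which was not tested. The mean share of all counts in these pseudogenes was 0.006675% in Bmal1 KO AL and 0.00425% in Bmal1 WT AL. Under RF it was 0.006792% in Bmal1 KO and 0.004517% in Bmal1 WT.

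The 75 mRNAs moved together from library to library. The correlation of each gene with the mean of the others on the log2 scale ran from 0.82 to 0.99 with a median of 0.97 over the 96 libraries, and from 0.65 to 0.98 with a median of 0.94 over the 90 libraries without Cry KO AL series 2. Within cells of the same group and time, the difference between the 2 libraries gave a median correlation of 0.93 over 42 cells without that group, so the shared movement was also present between libraries of 1 condition. These are descriptions without a test, and the values share library depth and scaling. Rpl13a, Rpl22, Rpl23a and Rpl41 followed the others least, and Rps15 and Rpl11 most, at 0.97 each in the differences within cells. The subunits moved alike: in Cry KO AL against WT the median was 0.73 log2 in both the small and the large subunit, and in no comparison of mean level did the 2 medians lie on different sides of 0. The ratio of the highest to the lowest library was 2.12 to 5.75 per gene, with a median of 3.36.

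In Cry KO AL against Cry WT AL all 75 genes were higher, at a BH adjusted p under 0.05 in edgeR's quasi-likelihood test over 18326 genes, the test used for every call below. The background was 15.7% of all genes called higher. The median log2 fold change was 0.73 (1.66-fold, range 0.45 to 1.0), where the median over all genes was -0.06. Without series 2 the call was left for 1 gene, Rps4x, of 75, and the median was 0.10 (0.01 to 0.34). Among all genes 2.34% were then called higher. All 75 values were above 0 in both fits.

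Rplp1 was at 188.5, 203.1 and 244.7 CPM (lowest, median, highest) in Cry WT AL, at 210.8, 234.2 and 259.1 CPM in series 1 of Cry KO AL and at 557.9, 567.3 and 740.5 CPM in series 2. Series 2 was clear of both other sets, and series 1 overlapped the WT range. Its log2 fold change was 0.99 ± 0.16 (SE, adjusted p = 3.824e-06). Rps14, a small subunit protein, was at 108, 115.2 and 143.1 CPM in Cry WT AL, at 116.1, 134.3 and 139.9 CPM in series 1 and at 299.2, 338.6 and 399.3 CPM in series 2, for a log2 fold change of 1.0 ± 0.16 (adjusted p = 3.052e-06). Rpsa, which also serves as a laminin receptor, was at 282.4, 311.7 and 384.8 CPM in Cry WT AL, at 296.8, 377.2 and 407.9 CPM in series 1 and at 745.7, 789.5 and 875 CPM in series 2. The same pattern held across the genes, since series 1 overlapped the range of Cry WT AL in 75 of 75.

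By role, the log2 fold changes in Cry KO AL with both series were 0.72 for Rplp0 and 0.78 for Rplp2, the partners of Rplp1 in the stalk that recruits elongation factors. Rpl5 at 0.60 and Rpl11 at 0.75 encode the proteins that carry 5S ribosomal RNA and, when free, bind MDM2. Rps6 was at 0.54, Rps27a, made as a fusion with ubiquitin, at 0.82, and Rpl3, at the peptidyl transferase centre, at 0.49. Rpl41, which encodes a very short protein, was at 0.87, Rps21 at 1.0 and Rps20 at 0.89 (adjusted p = 1.627e-06). None of these genes was called without series 2, where Rplp0 was at 0.25, Rplp2 at 0.08, Rpl5 at 0.14, Rpl11 at 0.03, Rps6 at 0.14 and Rps27a at 0.06. There Rpl3 was at 0.15, Rpl41 at 0.09, Rps21 at 0.16, Rps20 at 0.17, Rplp1 at 0.15, Rps14 at 0.14 and Rpsa at 0.21.

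Rps4x, an X-linked small subunit gene, was the exception when series 2 was left out, and was singled out after its values were seen. It was at 208.4, 220.1 and 274.8 CPM in Cry WT AL, at 250.3, 301 and 307.9 CPM in series 1 of Cry KO AL and at 383.8, 414.7 and 474.7 CPM in series 2. Both series were higher at the median, although the series 1 range overlapped WT at its lower end. The log2 fold change was 0.66 ± 0.09 (adjusted p = 1.233e-07) with both series and 0.34 ± 0.08 (adjusted p = 0.006231) without series 2. Under night feeding it was at 189.2, 219.6 and 338.3 CPM in Cry WT RF and at 235.9, 270.7 and 361.4 CPM in Cry KO RF, where the ranges overlapped and the difference of 0.27 ± 0.09 did not pass (adjusted p = 0.05569).

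The 2 series of Cry KO AL were also compared directly, with a series term added after seeing the data. Series 2 had been singled out by its level of these same genes, so calls in them are no test of the gap. With 1 series on each side, the SE holds the spread between libraries and not that between series. The values are given for their size. All 75 genes were higher in series 2 (background 20.9% of all genes called higher), at a median of 1.08 log2 (2.12-fold, range 0.57 to 1.40). Rps14 (1.40 ± 0.11), Rps27 (1.40 ± 0.11) and Rpl38 (1.38) differed most, and Rpl31 (1.29 ± 0.09) had the smallest p. Rps4x (0.57 ± 0.09), Rpl10 (0.59), Rpl3 (0.60) and Rpl4 (0.67) differed least. In the 7 other groups the same comparison called 1 gene, Rpl23 in Bmal1 WT AL at -0.28 (adjusted p = 0.03363, background 1.82% of all genes called lower), and none in the others, where 0.142% to 3.8% of all genes were called.

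Other measures moved with series 2. All 8 endothelial markers were lower than in series 1 (median -2.12 log2), and their summed level was 58.6 to 136.2 CPM without TMM scaling in series 2, 445.1 to 480.4 in series 1 and 187.7 to 485.3 in the other 90 libraries. Of the 9 Kupffer cell markers 8 were lower (median -1.22, summed level 120.4 to 286.9 against 442.9 to 863.3 CPM). That sum spanned 99.2 to 1025 CPM in the other 90 libraries, so it overlapped series 2. Of the 6 stellate cell markers 3 were lower. Of the 8 hepatocyte markers 4 were higher and 1 was lower, and of the 8 acute phase genes 4 were higher. Of the 5 cholangiocyte markers 2 were higher (median 0.70) and of the 5 erythroid markers 2 were higher (median 1.155), with none lower in either. None of the 9 B and T cell markers was called (median -0.15), and of 4 neutrophil markers 1 was lower. None of these markers was at 0 in every library of series 2. Mitochondrially encoded genes held 7.79% to 12.4% of counts in series 2 and 5.96% to 7.31% in series 1. In the other 90 libraries they held 4.37% to 10.93%, which overlaps series 2. The part of these measures in the result was not tested. In bulk tissue a change in the number of cells of a type and a change in RNA per cell cannot be told apart.

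Short mRNAs in general were higher in series 2. Among other genes with a mean of at least 5 CPM, the median log2 difference between series 2 and 1 was 1.22 for mRNAs of up to 600 bp (105 genes), 0.86 up to 1000 bp (534 genes), 0.45 up to 2000 bp, -0.03 up to 4000 bp and -0.51 above. The ribosomal protein genes in these 5 classes had medians of 1.22 (21 genes), 1.0 (37 genes), 0.87 (13 genes), 1.04 (3 genes) and 1.12 (1 gene). In the shortest class the 2 sets were alike, and in the longer classes the ribosomal protein genes were higher than other genes of the same annotated class. The lengths come from the annotation and were not measured in liver. Rps15a is listed at 5130 bp and Rps20 at 3706 bp, so a gene may sit in too long a class, which bears on the gap in the longer classes. Along the 75 genes the difference correlated with mRNA length at r = -0.44 and rho = -0.60 (n = 75, across genes of the same libraries, no test). The part of mRNA length in the result was not tested.

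**Figure D2:**
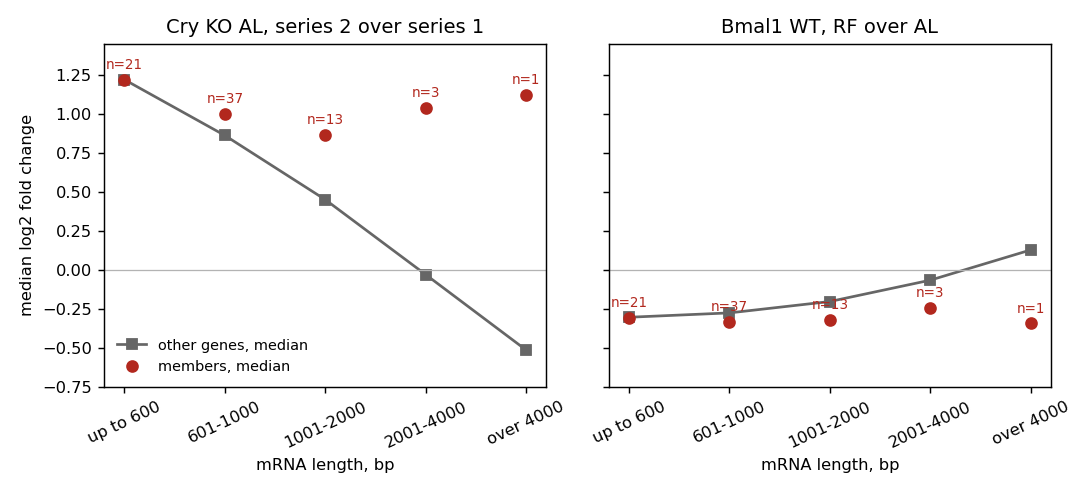
Median log2 fold change by class of annotated mRNA length for the 75 ribosomal protein genes and for other genes. The other genes had a mean of at least 5 CPM. Values are for series 2 over series 1 of Cry KO AL and for RF over AL in Bmal1 WT (n, ribosomal protein genes per class). In the difference between series 2 and 1 of Cry KO AL, other genes fall from 1.22 in the shortest class to -0.51 in the longest, while the ribosomal protein genes stay between 0.87 and 1.22.

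Under night feeding, none of the 75 genes was called between Cry KO and Cry WT (background 5.17% of all genes called in either direction), and 1 had an unadjusted p under 0.05. The median log2 fold change was 0.06, and with a median SE of 0.13 the 95% interval of a typical gene reached 0.25 to each side. In Cry KO RF Rplp1 was at 213.8, 245.8 and 344.9 CPM, for a log2 fold change of 0.14 ± 0.15. DESeq2 called 1 gene, Rps4x, and limma-voom none, and edgeR without either series of Cry KO AL called Rps4x alone.

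The difference between the Cry knockout effect under RF and under AL was negative and called for 65 of 75 genes (background 3.5% of all genes called lower), with a median of -0.68. Rps14 (-0.98 ± 0.22, adjusted p = 0.02232), Rps27 (-0.96) and Rps21 (-0.95) were the largest. Without series 2 of Cry KO AL, edgeR called none of the 75 and the median was -0.05. With both series, DESeq2 called 75, and 0 passed in limma-voom with the series as a random effect or in edgeR fitted on the compared groups alone. None passed without series 5 of Cry KO RF, series 2 of Cry WT AL or series 6 of Cry WT RF, 4 without series 4 of Cry WT AL and 35 without series 3 of Cry KO RF.

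In the Bmal1 line, the number of genes called depended on the estimate of the spread. Under AL 1 gene of 75 was higher in Bmal1 KO and none lower (background 10.9% of all genes called higher), and the median log2 fold change was 0.04. Under RF 9 were higher and none lower (background 10% called higher), with a median of 0.22 and 74 of 75 values above 0. Without series 2 of Cry KO AL, which is in neither comparison, 4 were higher under AL (15% of all genes) and 46 under RF (11.6%), at medians of 0.05 and 0.20. Without series 1 of that group, 3 were higher and 1 lower under AL (14% of all genes called higher) and 39 were higher under RF (11.2%). On the compared groups alone the counts were 4 (12.1%) and 31 (9.38%), and limma-voom called 0 and 1. The difference between the Bmal1 knockout effect under RF and under AL was called for none of the 75 (background 0%), with a median of 0.18, and 0 had an unadjusted p under 0.05. DESeq2 and limma-voom also called 0. The median SE of this difference was 0.18 log2 in the fit of all libraries.

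Rpl4, whose product lines the exit tunnel of the large subunit, was called under both feedings. It was at 416.6, 503.9 and 553.9 CPM in Bmal1 WT AL and at 542.3, 593 and 698.6 CPM in Bmal1 KO AL, for a log2 fold change of 0.25 ± 0.09 (adjusted p = 0.03774). Under RF it was at 405.1, 431.1 and 476.9 CPM in WT and at 394.1, 558 and 652.9 CPM in KO, for 0.34 ± 0.09 (adjusted p = 0.004102). The AL ranges met only at their edge, and the lowest KO library under RF lay below the WT range.

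Rps12, a small subunit protein, had the largest fold change under RF. It was at 99.5, 115.8 and 131.7 CPM in Bmal1 WT RF and at 125.2, 167.8 and 211 CPM in Bmal1 KO RF, so only the lower end of KO overlapped WT, and the log2 fold change was 0.55 ± 0.15 (adjusted p = 0.004509). Under AL it was at 110.3, 144.6 and 186.2 CPM in WT and at 166.1, 180 and 204 CPM in KO, with 0.37 ± 0.15, which did not pass (adjusted p = 0.06608). The other genes called under RF were Rplp1 (0.43 ± 0.15, adjusted p = 0.0447), Rpl12 (0.41 ± 0.13, adjusted p = 0.01717), Rps7, Rpl10a, Rpl5, Rpl7a and Rpl3, at 0.28 to 0.35. Rplp1 was at 208.8, 224 and 249.8 CPM in WT RF and at 196.4, 309.1 and 372.7 CPM in KO RF.

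The calls under RF also changed with single series of the compared groups. Without series 2 of either genotype 0 genes were called, without series 4 of Bmal1 KO RF 5 were, and without series 4 of Bmal1 WT RF only Rpl4 and Rps12. One KO RF library at ZT0 (series 4) stood low at a score of -0.52 and held 5606 CPM of the acute phase gene Saa1, without TMM scaling. The median under AL turned to -0.03 without series 8 of Bmal1 WT AL, and without any 1 of the 4 series compared under AL, 0 genes were called.

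Rps13 was the only gene below 0 under RF (-0.07) and was at -0.17 under AL, where it was at 79.5, 106.6 and 121.9 CPM in WT and at 78.8, 90.9 and 112.3 CPM in KO. It was not called under either feeding. Rps13 (chr7:116331505-116334195) and Arntl (chr7:113207465-113314126) are on the same chromosome. Of the 6 genes with an E-box in the promoter, none was called in either comparison in the fit of all libraries. Examples are Rpl14 at 0.11 ± 0.11 under AL and 0.26 ± 0.11 under RF, and Rpl34 at 0.03 and 0.19. Most of the other ribosomal protein genes were not called in that fit either, so this does not set the E-box genes apart. More genes were called under RF without series 2 of Cry KO AL, and calls of the E-box genes there are not given. Whether E-box genes differed from the others was not tested.

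**Figure D3:**
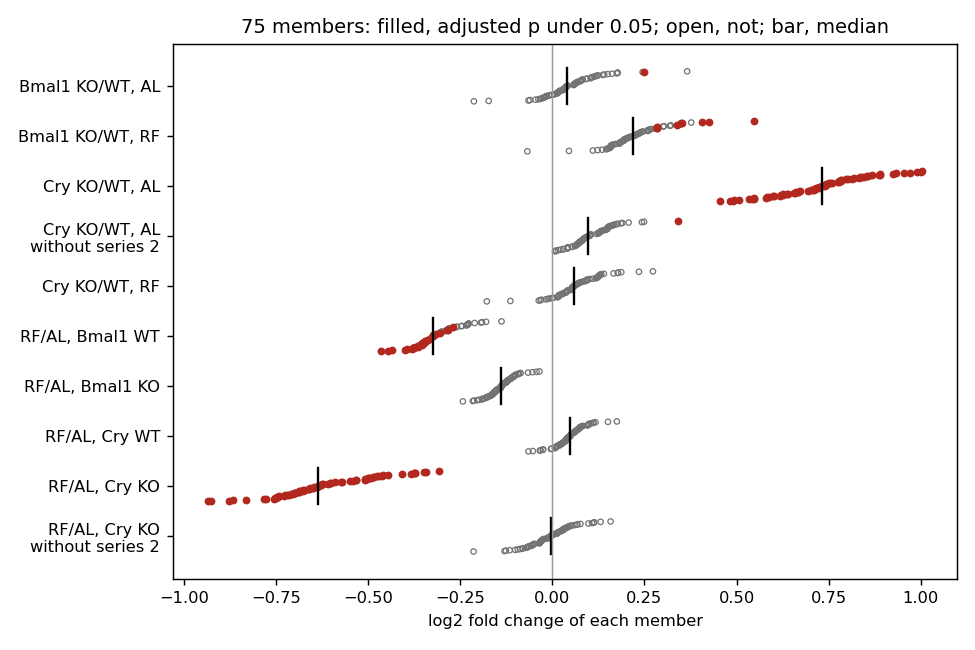
Log2 fold change of each of the 75 genes in the knockout and feeding comparisons, with both Cry KO AL results also without series 2 (filled points, adjusted p under 0.05; bar, median). The Cry KO AL values lie between 0.45 and 1.0, while the medians are 0.06 in Cry KO RF, 0.04 in Bmal1 KO AL and 0.22 in Bmal1 KO RF.

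In the comparison of RF with AL, calls were made in Bmal1 WT and in Cry KO. In Bmal1 WT 26 of 75 were lower under RF and none higher (background 7.2% of all genes called lower), with a median of -0.33 and all 75 values below 0. Without series 2 or series 1 of Cry KO AL, which enter this comparison only through the spread, 73 and 74 were lower (background 12.1% and 13%), and on the compared groups alone 72 were (10.1%). In Bmal1 KO none was called (background 0.638%), with a median of -0.14, again all 75 below 0 and 1 gene at an unadjusted p under 0.05. In Cry WT none was called (background 1.46%), with a median of 0.05 and 0 genes at an unadjusted p under 0.05. DESeq2 and limma-voom also called 0 in both. The edgeR counts of 0 in Bmal1 KO and Cry WT are from the fit of all libraries, at a median SE of 0.13 log2 in each. A difference between these groups in the feeding effect was tested only as the difference of the knockout effects between feedings. The calls of Bmal1 WT and of Bmal1 KO RF share the Bmal1 WT RF libraries.

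Rplp0, the stalk base, was at 313.9, 414.4 and 499 CPM in Bmal1 WT AL and at 288, 328.5 and 349.2 CPM in Bmal1 WT RF, for -0.38 ± 0.11 (adjusted p = 0.01803). Rpl41 was at 130.8, 174.8 and 243.4 CPM under AL and at 112.2, 130.4 and 147.6 CPM under RF, for -0.45 ± 0.15 (adjusted p = 0.0342). Rpl35 (-0.46 ± 0.14, adjusted p = 0.02628) fell most and Rpl10a (-0.44 ± 0.12, adjusted p = 0.01294) had the smallest p. The AL and RF ranges of Rplp0 and Rpl41 overlapped, the AL libraries reaching higher. Of the 26 genes 20 belonged to the large subunit, among them Rpl10, Rpl7a, Rpl8 and Rpl29 at -0.27 to -0.36, and 6 to the small one, among them Rps2, Rps4x and Rps6. Without series 1 of Bmal1 WT AL 0 genes were called and the median was -0.22, and 0 were also called without series 2 or series 4 of Bmal1 WT RF. Without series 8 of Bmal1 WT AL 16 were called, limma-voom called 0 and DESeq2 13. Other genes of the 2 shortest length classes had medians of -0.30 and -0.28 in this comparison, against -0.31 and -0.34 for the ribosomal protein genes.

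In Cry KO, all 75 genes were lower under RF than under AL (background 9.04% called lower), with a median of -0.64 (-0.93 to -0.31). Rps27 (-0.93 ± 0.16, adjusted p = 0.0001594), Rps14 (-0.93) and Rpl13a (-0.88) were the largest changes, and Rpl22 (-0.73 ± 0.12, adjusted p = 0.0001564) and Rpl26 (-0.74) had the smallest p. Without series 2 of Cry KO AL, 0 were called and the median was -0.01 (-0.21 to 0.16). With both series, limma-voom and edgeR on the compared groups alone called 0, and DESeq2 called 75.

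The WT groups of the lines differed under AL. Cry WT AL was lower than Bmal1 WT AL in 19 of 75 genes (background 9.38% called lower), with a median of -0.29 and all 75 below 0. Without series 2 or series 1 of Cry KO AL, 70 and 71 were lower (background 13.2% and 13.9%), and on the compared groups alone 70 were (13.8%). Rps2, at 453.5, 604.4 and 690.8 CPM in Bmal1 WT AL and at 387.5, 430.9 and 487.6 CPM in Cry WT AL, had the smallest p (-0.45 ± 0.11, adjusted p = 0.003073), and Rplp1 the largest fold change (-0.48 ± 0.15, adjusted p = 0.02549). The 19 genes were Rps2, Rps4x and Rps16 of the small subunit and 16 of the large one, with Rpl41 at -0.41, Rpl10a at -0.39 and Rplp0 at -0.38. Line and any difference in animals or handling cannot be told apart. DESeq2 called 12 and limma-voom 0, and edgeR called 0 without series 1 of Bmal1 WT AL or series 4 of Cry WT AL, 1 without series 2 of Cry WT AL and 9 without series 8 of Bmal1 WT AL. Under RF none was called (background 0.715%), none had an unadjusted p under 0.05, and DESeq2 and limma-voom called 0. The median SE there was 0.13 log2 in the fit of all libraries.

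Between the knockout effects, Cry minus Bmal1 was higher under AL in 73 of 75 genes (background 17.2% called higher), median 0.68, with Rpl41 (1.08 ± 0.21, adjusted p = 5.135e-05) and Rps4x (0.68 ± 0.12, adjusted p = 2.268e-05) in the lead by size and by p. Rpl3 at 0.31 and Rpl4 at 0.23 were not called. With both series limma-voom called 32 genes, DESeq2 74, and edgeR scaled by library size alone 17. Without Cry KO AL series 2, Rps4x alone was called, at 0.36 ± 0.11 (adjusted p = 0.01424, 7.57% of all genes called higher), and the median was 0.05. Under RF none was called (background 13%), with a median of -0.16. At an unadjusted p under 0.05 there were 3 genes, and DESeq2 and limma-voom called 0. Without either series of Cry KO AL 7 were lower. The share of all genes called lower in those fits is not given, so the 7 are not set against a background.

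No ribosomal protein mRNA passed the main test for a 24 h rhythm, and with 1 intercept per series 40 of 75 passed in Cry KO RF. The main test was a cosine per group. In it, 0 of 75 were called in any of the 8 groups or in the 4 differences between KO and WT. This fit had no term for the series, so the gap between the series of Cry KO AL adds to the spread of these genes in every group. Among all genes 8.61% were called in Bmal1 WT AL, 11.5% in Bmal1 WT RF, 5.98% in Cry WT AL, 16.9% in Cry WT RF, 5.27% in Bmal1 KO RF and 6.32% in Cry KO RF, and 0.273% and 0.0109% in Bmal1 KO AL and Cry KO AL. For the differences the background was 0.611% and 1.06% in the Bmal1 line and 0.677% and 2.16% in the Cry line, AL then RF. At an unadjusted p under 0.05 there were 8 genes in Cry KO RF and 0 elsewhere. By limma-voom 1 gene was called in Cry KO RF and 0 elsewhere.

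The fitted peak-to-trough range had a median over the 75 genes of 0.08 log2 in Bmal1 WT RF to 0.41 in Cry KO RF, where all genes had medians of 0.34 to 0.58 across the 8 groups. Of the 8650 genes at a like level (6.49 to 527.5 CPM), the smallest range called was 0.28 to 0.34 in the 6 groups with many calls, and the median of the 75 genes was below that in each of these groups other than Cry KO RF. In Cry KO RF the largest was that of Rpl13a (0.87), and Rps27 had 0.83, a peak at 14.7 h and an adjusted p of 0.1104. The 7 other genes at an unadjusted p under 0.05 were Rpl13a, Rpl14, Rpl7, Rpl9, Rps19, Rps3 and Rps3a1, at peaks of 14.7 to 16.8 h. In Cry WT RF Rpl13a had a range of 0.76 (adjusted p = 0.1699), and Rps27 had ranges of 0.17 to 0.43 in the 7 other groups. The mean score in Cry KO RF was highest at ZT16, at 0.40 in series 3 and 0.04 in series 5. Series 5 was highest at ZT12 (0.09), and the ZT16 library of series 3 stood off its group. With 1 intercept per series, 40 genes were called in Cry KO RF (12.3% of all genes). Their ranges were 0.38 to 0.86 and their peaks 14.1 to 16.9 h, with Rps27 at an adjusted p of 0.0006176. How far these calls rest on the series 3 library at ZT16 was not tested.

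**Figure D4:**
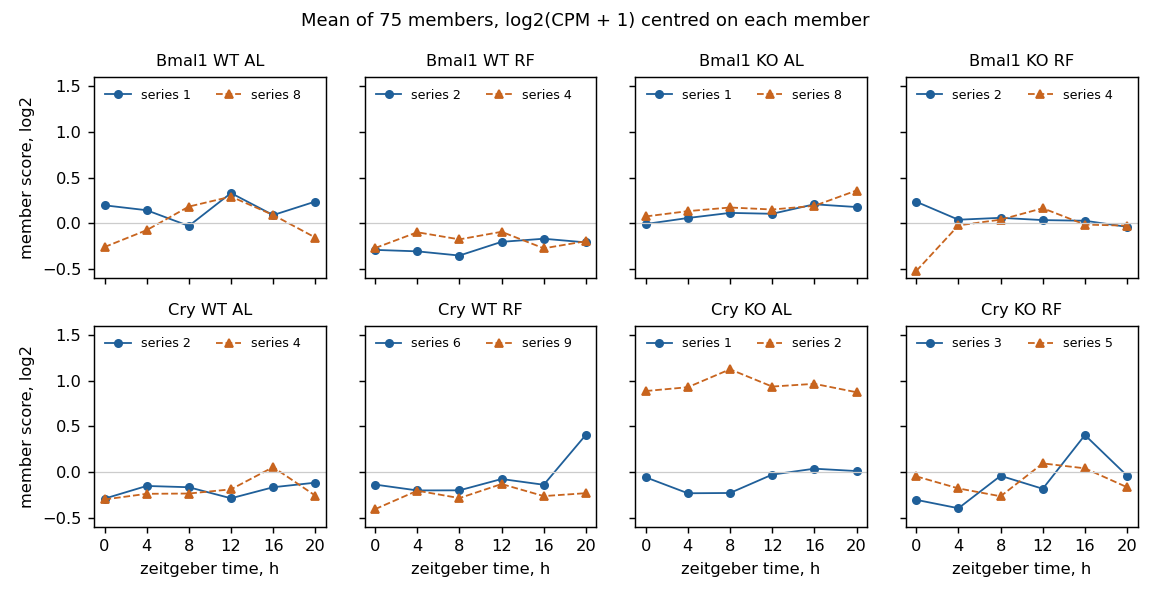
Ribosomal protein score by zeitgeber time (h) in the 8 groups, with 1 line per replicate series and 1 library per point. Cry KO AL separates into its 2 series at every time, from -0.23 to 0.04 and from 0.87 to 1.12. In Cry KO RF series 3 is highest at ZT16 (0.40) and series 5 at ZT12 (0.09).

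Other genes of translation were read from lists, with the share of all genes called given with each comparison above. In the Cry KO AL comparison, 5 of 9 related genes outside the rule were higher, among them Fau (0.72), which encodes a ribosomal protein joined to a ubiquitin-like protein, and Rack1 (0.61), a scaffold on the small subunit. The others were the paralogs Rpl22l1 (0.84), Rps27l (0.63) and Rps4l (0.58). Rpl22l1, the paralog of Rpl22, was also higher in the Bmal1 line, at 0.43 ± 0.16 under AL (adjusted p = 0.04928) and 0.56 ± 0.16 under RF (adjusted p = 0.009114). Of 21 other TOP genes 15 were higher and 1 lower, of 28 initiation factors 10 higher and 1 lower, and of 40 ribosome biogenesis genes 10 were higher. Of 77 mitochondrial ribosomal protein genes 65 were higher, of 74 nuclear genes of the respiratory chain 66, and of 38 proteasome genes 20. Between series 2 and 1 of Cry KO AL the same lists had 14 of 21, 18 of 28, 16 of 40, 75 of 77, 72 of 74 and 36 of 38 higher. Without series 2, Cry KO AL against WT had 0 of 9 related genes, 0 of 21 other TOP genes, 0 of 28 initiation factors, 0 of 40 biogenesis genes, 1 of 77, 0 of 74 and 0 of 38 higher. Between the series, the mTOR list had 6 higher and 14 lower of 30. Among them were Eif4ebp1 (0.97), a translation repressor that mTOR inactivates, and Tsc2 (-0.49), which restrains mTOR. The part called higher is near the share of all genes called higher between the series, given above. The share of all genes called lower is not given, so these counts do not set the list apart. A change of the mTOR pathway was not tested.

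With night feeding in Bmal1 WT, 8 of 21 other TOP genes were lower, with Eif3l (-0.26) and Eif3f (-0.30) of the smallest p. Of 40 biogenesis genes 10 were lower, for example Rrp9 (-0.44) and Bysl (-0.49), and of 77 mitochondrial ribosomal protein genes 41 were lower. In Bmal1 KO RF, 6 of 21 other TOP genes were higher than in WT, for example Npm1 (0.35), and 1 was lower, Nap1l1 (-0.40). In the main fit, biogenesis genes were called rhythmic in 11 of 40 in Bmal1 WT RF (background 11.5% of all genes) and 11 of 40 in Cry WT RF (16.9%). Of the 75 ribosomal protein genes, 0 were in these 2 groups, and with 1 intercept per series 1 was in Bmal1 WT RF. The gap between the series of Cry KO AL was larger in ribosomal protein genes and adds to their spread, so the 2 sets cannot be compared by these counts.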

How the data were processed

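Liver mRNA was sequenced from 250 ng of total RNA with a stranded mRNA kit, 11 PCR cycles and paired ends of 100 cycles, per the labels' protocols. The authors deposited raw counts per Ensembl gene and library, with no normalisation. Per the submitters' processing notes, STAR 2.4.0i and the build mm10 were used. How reads were counted, on which strand and with which annotation is not given in the sources used here. GENCODE M21 gave a symbol to 55154 of 55421 identifiers, and those without one (267) took 0.0449% of counts.

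Groups came from the labels (line, genotype, feeding). Counts of all 96 libraries were fitted with edgeR 4.0.16 (R 4.3.3) by quasi-likelihood, with TMM scaling, filterByExpr (minimum count 10, minimum total 15; 18326 genes, all 75 ribosomal protein genes among them) and 1 mean per group and time (48 means of 2 libraries). Contrasts average the 6 times equally; p-values are two-sided and Benjamini-Hochberg adjusted over all genes, with a threshold of 0.05. There were 14 comparisons of mean level. The rhythm fit had a 24 h cosine per group. Scores used log2(CPM + 1). The tests were also run on simulated counts. These were drawn for each gene alone and without a series effect, so the simulation does not cover a shifted series or genes that move together. Alternatives were RLE size factors, library size alone, no filter, the compared groups alone, a filter at a mean of 1 CPM, DESeq2 1.42.0, limma-voom (limma 3.58.1) with series as a random effect, a replicate block and leaving out each of the 16 series. Leaving out a series leaves 1 library per mean, which is then assumed to vary like the other groups. A series term, and fits without the 3 shallowest libraries or the 2 highest in Saa1 (5606 and 20830 CPM without TMM scaling), were chosen after seeing the data.

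The genes and lists were chosen with earlier results of these data known. Named were the 5 genes of highest and lowest level, per comparison the 3 called genes of largest change and the 2 of smallest p, genes with a described role, genes against the common direction, and up to 2 called genes per related list; any other is said to be chosen after its values were seen or is a sequence example. Some genes that this rule names are not reported here.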

Additional observations from a re-analysis of the deposited data

Results flagged for a closer look

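The effect of the Cry knockout differed between the feeding regimens for 65 of the 75 ribosomal protein genes, each lower under RF than under AL by the test of the difference itself (edgeR, median -0.68 log2). Without series 2 of Cry KO AL, 0 of 75 passed, 0 had an unadjusted p under 0.05, and the median was -0.05. With both series, 0 passed in limma-voom with the series as a random effect, in edgeR on the compared groups alone, or without the 3 shallowest libraries, and DESeq2 called 75.

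The effects of the Cry and the Bmal1 knockout under AL differed for 73 of the 75 genes, each higher in the Cry line (median 0.68 log2). With limma-voom 32 passed, with scaling by library size alone 17 and with DESeq2 74. Without series 2 of Cry KO AL, 1 gene passed, Rps4x at 0.36 ± 0.11 log2 (adjusted p = 0.01424), 4 had an unadjusted p under 0.05, and the median was 0.05.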

How the results depend on the processing

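Counts below are of ribosomal protein genes called, out of 75. The share of all genes called under these settings is given only where stated above. Without it the counts show how calls moved, not whether they exceed the background. With the compared groups alone, the counts were 4 in Bmal1 KO AL (1 in the main analysis), 31 in Bmal1 KO RF (9), 0 for the difference of the Cry effect between feedings (65), 4 for Cry minus Bmal1 under RF (0), 70 for the WT lines under AL (19), 72 for feeding in Bmal1 WT (26) and 0 for feeding in Cry KO (75). Scaling by library size alone gave 22, 14 and 0 for the first 3, 17 for Cry minus Bmal1 under AL (73), 1 for the same under RF, 1 for the WT lines under AL and 0 for feeding in Bmal1 WT. That scaling moved the median of all genes to 0.20, -0.40, 0.19 and 0.14 log2 in Bmal1 KO AL, Cry minus Bmal1 under AL, the WT lines under AL and feeding in Bmal1 WT. With limma-voom the counts were 0 in Bmal1 KO AL, 1 in Bmal1 KO RF, 0 for the difference of the Cry effect, 32 for Cry minus Bmal1 under AL, 0 for the WT lines under AL, 0 for feeding in Bmal1 WT, 0 for feeding in Cry KO and 1 for the rhythm in Cry KO RF. DESeq2 gave 1 in Cry KO RF (0), 12 for the WT lines and 13 for feeding in Bmal1 WT. A mean of at least 1 CPM gave 5 in Bmal1 KO RF, 1 in Cry KO RF and 15 for feeding in Bmal1 WT, and RLE gave 5, 9 and 8 in Bmal1 KO RF, the WT lines and feeding in Bmal1 WT. No filter gave 1 for Cry minus Bmal1 under RF, 35 for the WT lines and 51 for feeding in Bmal1 WT. Without the 2 libraries highest in Saa1, 1 was called in Cry KO RF, 12 for the WT lines and 15 for feeding in Bmal1 WT, and without the 3 shallow libraries 0 for the difference of the Cry effect. With 1 intercept per series the rhythm counts were 1 in Bmal1 WT RF and 40 in Cry KO RF. The causes were not tested.

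Leaving out each series of the compared groups in turn gave 0 to 0 in Bmal1 KO AL, 0 to 5 in Bmal1 KO RF, 1 to 75 in Cry KO AL, 0 to 1 in Cry KO RF, 0 to 75 for the difference of the Cry effect, 1 to 75 for Cry minus Bmal1 under AL, 0 to 9 for the WT lines under AL, 0 to 16 for feeding in Bmal1 WT and 0 to 75 for feeding in Cry KO, and 0 in each other comparison. Leaving out a series of another group also moved counts, since all libraries share the estimate of the spread: without series 2 or series 1 of Cry KO AL the counts were 4 and 4 in Bmal1 KO AL, 46 and 39 in Bmal1 KO RF, 73 and 74 for feeding in Bmal1 WT, and 70 and 71 for the WT lines under AL, and over the other groups they ran from 0 to 1, 3 to 7, 3 to 17 and 5 to 15. The median in Bmal1 KO AL ran from -0.03 to 0.15. Between leaving out series 2 and series 1 of Cry KO AL, log2 fold changes in Cry minus Bmal1 under AL ran from -0.05 to 1.19 for Rpl11, -0.01 to 0.83 for Rpl5, -0.04 to 1.38 for Rplp1 and -0.07 to 1.23 for Rps27a. For feeding in Cry KO they ran from 0.02 to -1.21 for Rpl11, 0.10 to -1.22 for Rpl41, 0.13 to -1.27 for Rplp1, 0.04 to -1.16 for Rplp2, 0 to -1.28 for Rps27a and 0.07 to -1.10 for Rpsa. For the difference of the Cry effect they ran from 0 to -1.31 for Rpl41 and from 0.01 to -1.19 for Rplp2.

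The replicate block, possible between KO and WT of the Bmal1 line, left the counts at 1 in Bmal1 KO AL and 9 in Bmal1 KO RF and at 0 for their difference and for the rhythms of that line. AL and RF groups share no number, and in the fit with the block 23 genes were called for feeding in Bmal1 WT, 19 for the WT lines under AL and 61 for the difference of the Cry effect. Same-numbered libraries of KO and WT deviated together at r = 0.22 (AL) and 0.26 (RF) in 9463 genes, but with 2 pairs each and no label of a shared litter, batch or day the numbers were not taken to pair the samples. In the Cry line, KO and WT shared fewer than 2 numbers, so no block could be fitted. With a median SE of 0.13 in the fit of all libraries, a difference under about 0.25 log2 could not be told from 0 in a typical gene.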
